A study of Mus musculus with 4 samples.

Results

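The endoplasmic reticulum (ER) genes described here are 39 human genes whose products sense ER stress or move, fold, check and retrieve proteins that enter the secretory pathway. They were picked by name and not by a rule on their values, but with earlier results of these data known. They are 39 of the 33538 human genes counted. Their levels were read in human CD45+ cells from huNSG-SGM3 mice by droplet scRNAseq, and values are counts of unique molecular identifiers (UMIs), 1 for each transcript captured. There were 4 libraries, 1 each from naïve blood, sham blood, SCI blood and SCI cord, where SCI is contusive spinal cord injury, sham is the laminectomy alone, and naïve mice had no surgery.

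All hosts carried NOD.Cg-Prkdcscid with the IL2rgtm1Wjl allele and the Tg(CMV-IL3,CSF2,KITLG)1Eav/MloySzJ transgene, in which the CMV promoter drives the human cytokines IL-3, GM-CSF and stem cell factor, and were engrafted with CD34+ cells of human cord blood after irradiation. The labels give an age of 15 weeks for every library, and the operated mice were taken 7 days after surgery. Blood and cord of injured mice came from the same hosts, so that these libraries are not independent. Cells of several animals were pooled in each library, and the mice still held their own innate cells. Naïve and sham hosts were male whereas the SCI libraries mixed male and female hosts, so that host sex and injury cannot be told apart. Each condition has 1 library, so that conditions could not be tested against each other and no p-value is given. Intervals of single values below are 95% and cover counting error only. The interval beside a median is the median of the bounds of its genes, and is not a 95% interval of that median.

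Proteins bound for the cell surface or for secretion enter the ER through the SEC61 channel, lose their signal peptide, and are folded by chaperones such as HSPA5 (BiP) and by disulfide isomerases, while misfolded chains are sent back to the cytosol for degradation. When unfolded protein accumulates, the sensor ERN1 (IRE1) splices the transcript of XBP1 into an active transcription factor, and the kinase PERK leads to translation of ATF4 and then to expression of DDIT3 (CHOP). Plasma cells are the textbook case of this machinery, since they depend on XBP1 to build the ER that makes secreted immunoglobulin. The counts come from the 3′ end of transcripts, so that they need no length correction and cannot tell spliced from unspliced XBP1.

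Barcodes with over 50% of their UMIs on human genes numbered 18106 of 22830, and 17279 of these were kept after a filter at 3 median absolute deviations, with a median of 3717 to 5274 UMIs per cell in the blood libraries and 9331 in the cord. Pairs of libraries shared at most 10 barcodes. A plasma cell was a barcode with at least 2 MZB1 and at least 1 TNFRSF17 UMIs, and B, T and myeloid cells were called from the UMIs of marker lists, with myeloid cells split into monocytes and granulocytes. Here a granulocyte is a cell in which genes of basophils, mast cells and eosinophils outweigh those of monocytes. Plasma cells numbered 376 of 6395 cells in naïve blood, 7 of 4735 in sham blood, 12 of 6031 in SCI blood and 0 of 118 cells in the cord, which allows a share of up to 2.54%. B cells numbered 1192, 562 and 894 in the 3 blood libraries and 7 in the cord. T cells numbered 4408, 3885, 4830 and 70, monocytes 154, 99, 19 and 11, and granulocytes 92, 125, 130 and 27, in that order of libraries.

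The label of the plasma cells was checked with 6 other genes. In naïve blood JCHAIN, IRF4, PRDM1, SDC1, CD38 and POU2AF1 together gave 18647 CPM (UMIs of a gene scaled to a total of 1000000) in plasma cells, 1788 in B cells and 105 in T cells. SDC1, the surface marker CD138, gave 51 UMIs in plasma cells and 0 in the B and T cells of every blood library. Immunoglobulin and JCHAIN transcripts made up 30.9% of the plasma cells' UMIs. In sham and SCI blood the label held only in part. Only 4 of the 7 sham and 3 of the 12 SCI barcodes that passed the same rule fell in the plasma cell cluster, SDC1 was at 0 in both, and the genes of the B cell list summed to 1989 and 4020 CPM against 354 in naïve plasma cells. The plasma cell comparisons below therefore rest on naïve blood, where the cells share 1 library.

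Plasma cells carried by far the highest levels of these genes. The 39 genes made up 4.48% of the UMIs of naïve plasma cells once immunoglobulin was left out, against 0.529% in B cells and 0.563% in T cells of the same library. HSP90B1 (GRP94), the ER member of the HSP90 family, was the most abundant at 3291 CPM (3237 to 3345), followed by MZB1 at 2855 CPM, CALR (calreticulin) at 2368 CPM and HSPA5 at 2291 CPM. The lowest was DDIT3 at 23.5 CPM (19.2 to 28.5). MZB1, a cofactor of HSP90B1 in B lineage cells, was part of the rule for plasma cells. Its level there and its part in the 4.48% are therefore a description only. Without MZB1, the other 38 genes had a median share per cell of 4.30% in plasma cells and 0.460% in B cells, immunoglobulin left out.

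**Figure D1:**
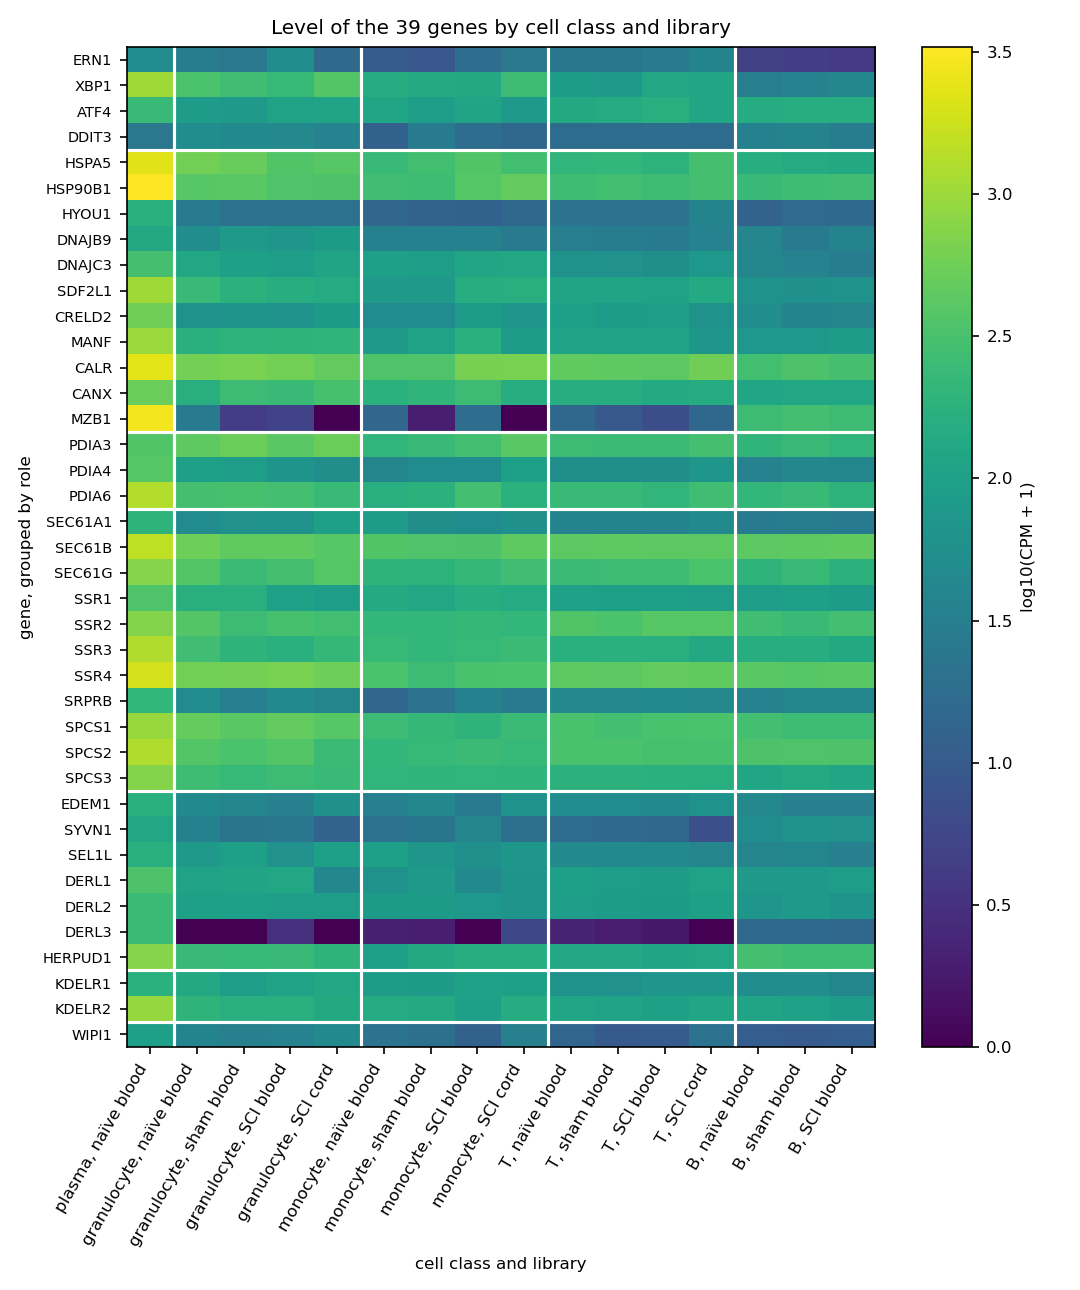
Level of each of the 39 genes (rows, grouped by role) in each cell class and library with at least 10 cells (columns, without the few sham and SCI barcodes of the plasma rule), as log10 of CPM plus 1. The naïve plasma cells in the first column are the brightest for most genes, with HSP90B1 at 3291 CPM, while DERL3 is dark outside plasma and B cells.

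Against B cells of the same library, 35 of the 38 genes other than MZB1 were at least 2-fold higher in plasma cells and 0 were at least 2-fold lower, where 9.41% of all 10694 genes tested were as much higher and 34.9% as much lower. The median log2 ratio of the 38 genes was 2.37 (2.20 to 2.53), while that of all genes was -0.61. With immunoglobulin left out of the total the medians were 2.86 and -0.12, and with trimmed-mean (TMM) scaling 2.98 and 0.00.

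Among the sensors and factors, 2 of 4 were past 2-fold. XBP1 stood at 1042 CPM (1012 to 1073) in plasma cells and 30.7 CPM in B cells, a log2 ratio of 5.08 (4.80 to 5.38) and the highest of the 39. ERN1, the enzyme that splices it, gave 211 UMIs in 376 plasma cells and 12 UMIs in 1192 B cells, a log2 ratio of 3.65 (2.87 to 4.68). ATF4, the factor downstream of PERK, stood at 234 and 150 CPM with a log2 ratio of 0.65 (0.49 to 0.81). DDIT3, the factor tied to prolonged stress and cell death, was the only member with a ratio below 0, at 23.5 and 34.4 CPM and a log2 ratio of -0.55 (-0.95 to -0.15), which is close to the median of all genes and was 0.05 with TMM scaling and -0.06 with immunoglobulin left out of the total. The transcripts of XBP1 and ERN1 of the IRE1 arm thus had higher ratios than those of ATF4 and DDIT3 of the PERK arm, with intervals that did not overlap. The sensor PERK itself is not among the 39 genes, so that whole arms were not compared.

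All 10 chaperones and cochaperones other than MZB1 were past 2-fold, with log2 ratios from 1.79 to 4.10. SDF2L1, a partner of the HSPA5 cycle, gave 1051 CPM in plasma and 61.2 in B cells, with a log2 ratio of 4.10 (3.90 to 4.31). HSPA5 itself was 14.9-fold higher, at 2291 against 154 CPM, a log2 ratio of 3.90 (3.77 to 4.03). HYOU1, its nucleotide exchange factor, followed at 3.84 (3.38 to 4.37) and HSP90B1 at 3.83 (3.73 to 3.94). MANF and CRELD2, small proteins that are themselves induced by ER stress, had log2 ratios of 3.74 and 3.42. The lectin chaperones CALR and CANX (calnexin) had ratios of 3.06 and 2.11, and the J-domain cochaperones DNAJC3 and DNAJB9 had ratios of 2.89 and 1.79, the latter at 134 against 38.4 CPM.

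Of the 3 disulfide isomerases, PDIA4 and PDIA6 had log2 ratios of 3.48 (3.21 to 3.77) and 2.57 (2.46 to 2.68). PDIA3, which works with the lectin chaperones and is also part of the MHC class I loading complex, was at 359 and 198 CPM with a log2 ratio of 0.86 (0.73 to 0.99), below 2-fold. PDIA3 was the lowest of the 38 against T cells, though not against B cells.

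The 11 genes of translocation were all past 2-fold, but by less than the chaperones, with a median of 2.00 and a range of 1.40 to 3.03. SEC61B, a small subunit of the channel, was at 1535 CPM in plasma and 431 in B cells, a log2 ratio of 1.83 (1.75 to 1.92). SSR4, a subunit of the translocon-associated complex, was at 1873 and 414 CPM, a log2 ratio of 2.18 (2.09 to 2.26). Within that complex the ratios ran from 1.40 for SSR2 to 3.03 for SSR3, and the pore subunit SEC61A1 stood above its small partners at 2.88 (2.56 to 3.22). The signal peptidase genes SPCS1, SPCS2 and SPCS3 gave 1.72, 1.88 and 2.57.

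All 7 genes of ER-associated degradation were past 2-fold, with a median of 1.84. DERL3, a channel component of the derlin family, was at 246 CPM in plasma and 15.7 in B cells, a log2 ratio of 3.96 (3.57 to 4.41), while its paralogues DERL1 and DERL2 had ratios of 2.10 and 1.78. SYVN1 (HRD1), the ubiquitin ligase of the pathway, had a ratio of 1.31 (1.06 to 1.57), and HERPUD1, which brings it to the derlins, a ratio of 1.32 (1.22 to 1.42) at 753 against 302 CPM. The KDEL receptors KDELR1 and KDELR2, which return escaped chaperones from the Golgi, gave 1.74 and 3.03, and the autophagy gene WIPI1 gave 3.23.

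**Figure D2:**
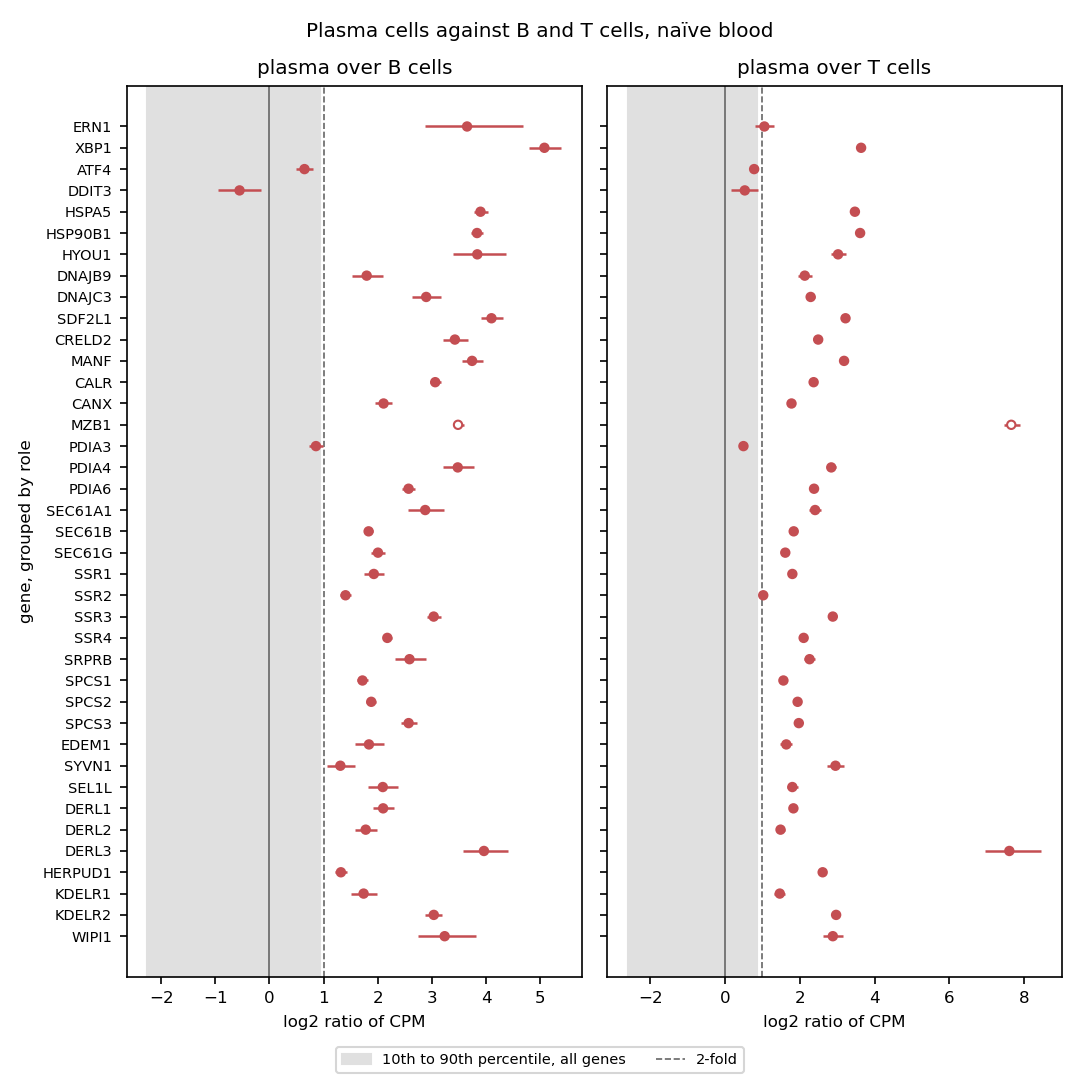
Log2 ratio of CPM of each gene in naïve plasma cells over B cells (left) and over T cells (right), with 95% counting intervals as bars. The grey band holds the middle 80% of all genes tested and the dashed line marks 2-fold; XBP1 at 5.08 lies farthest right on the left panel, DDIT3 and ATF4 lie in the band, and MZB1 (open circle) was used to define the cells.

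Against T cells, 35 of 38 members were again at least 2-fold higher (8.78% of 12353 genes) and 0 as much lower (36.4%), with a median of 2.20 (2.08 to 2.37). The highest of the 38 was DERL3 at 7.61 (6.94 to 8.46), as T cells held 16 of its UMIs in 4408 cells. XBP1 followed at 3.64, HSP90B1 at 3.61, HSPA5 at 3.47 and SDF2L1 at 3.22. The lowest were PDIA3 at 0.49, DDIT3 at 0.53 (0.17 to 0.87), ATF4 at 0.78, SSR2 at 1.02 and ERN1 at 1.05. T cells had more ERN1 and XBP1 than B cells did, so that these 2 genes of 1 arm stood out less against T cells. Against the 92 granulocytes of naïve blood the median was lower, at 1.67, with XBP1 at 1.66 (1.36 to 1.99) and DDIT3 at -1.21 (-1.98 to -0.25).

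Other genes of the same pathways were read from a list of 55, of which 53 had enough counts. In plasma cells over B cells 31 of the 53 were at least 2-fold higher and 2 as much lower, beside 9.41% and 34.9% of all genes, and their median was 1.29. The highest were FKBP11, an ER prolyl isomerase, at 5.39, TXNDC5, a thioredoxin-like isomerase, at 4.32 on 148 and 5 UMIs, SEC11C, a catalytic subunit of signal peptidase, at 4.11, LMAN1, the cargo receptor ERGIC-53, at 4.01, and KDELR3 at 3.80. Among the lowest were SESN2 at -1.47, PPP1R15A (GADD34) at -0.82, DNAJC10 at -0.82 and TRIB3 at -0.55. Against T cells 32 of 53 were higher and 0 lower, beside 8.78% and 36.4% of all genes, with a median of 1.15.

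The shares of cells with a UMI gave the same order at equal depth. When every cell was thinned to 1000 UMIs, HSP90B1 was found in 84.0% of naïve plasma cells, 12.1% of B cells and 15.7% of T cells. HSPA5 was found in 73.9%, 8.56% and 13.0%, and XBP1 in 47.1%, 1.01% and 5.90%. DERL3 was found in 17.3% (13.6% to 21.5%) of plasma cells, 1.01% of B cells and 0.113% of T cells, where the last value was taken as the background of free RNA. Before thinning, plasma cells held a median of 13356 UMIs against 3609 in B cells and 3570 in T cells, and XBP1 was seen in 97.1% of them. DDIT3 was seen in 1.60% of plasma cells, 2.52% of B cells and 1.18% of T cells after thinning, shares whose intervals overlap between plasma and either class.

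The cells at the edge of the plasma rule varied by gene. The 7 naïve cells just inside, with 2 or 3 MZB1 and 1 TNFRSF17 UMIs, had 269 CPM of XBP1, 916 of HSPA5 and 404 of SSR4, the last at the level of B cells. The 245 cells just outside, with at least 2 MZB1 and 0 TNFRSF17 UMIs, of which 196 counted as B cells, had 157, 663 and 695 CPM. The 10 cells with 1 MZB1 UMI and TNFRSF17 had 110 CPM of XBP1, 110 of HSPA5 and 496 of SSR4. The 44 cells with TNFRSF17 but no MZB1 had 43.1, 207 and 327 CPM.

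Naïve plasma cells also varied among themselves. The share of UMIs on the 38 genes, immunoglobulin left out, had a median of 4.30% per cell, a 10th percentile of 2.47% and a 90th of 6.46%, and ranged from 0.464% to 11.8%. In B cells the median was 0.460% and the 90th percentile 0.689%, which 372 of the 376 plasma cells exceeded. Cells with a larger immunoglobulin share of UMIs had a larger share of the 38 genes among their other UMIs. The Spearman correlation of these shares was 0.579 over 376 cells, which share 1 library and its free RNA. Both are shares, not amounts of transcript per cell. The correlation of the share of the 38 genes with depth was -0.166, and that of the immunoglobulin share with depth was -0.402.

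**Figure D3:**
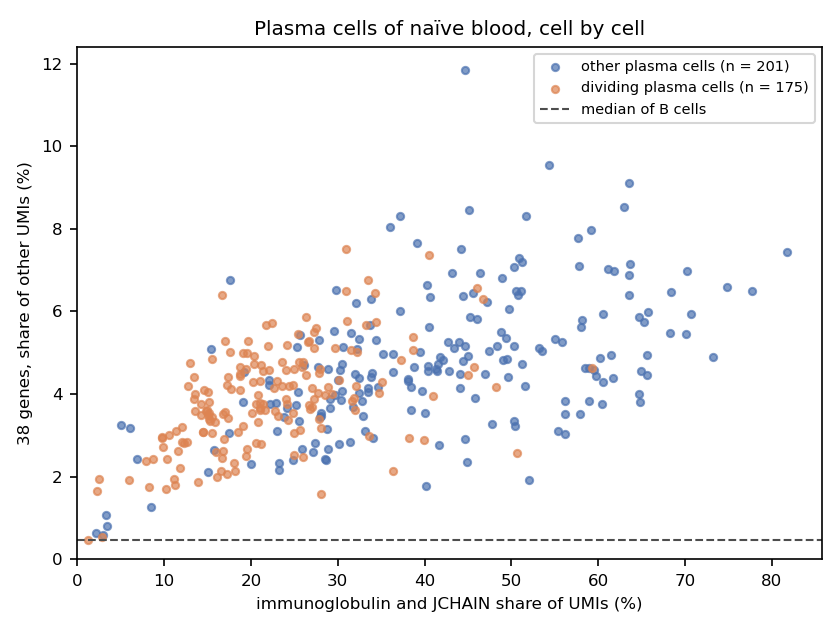
Share of UMIs on the 38 genes, immunoglobulin left out, against the immunoglobulin and JCHAIN share of all UMIs, 1 point per naïve plasma cell. Most dividing cells (175, orange) lie to the left of most of the other 201 (blue), and all 376 points lie above the dashed median of B cells at 0.460%.

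Of the 376 cells, 175 were dividing by at least 2 UMIs of 7 cell cycle genes. They were deeper than the other 201, with a median of 17396 against 10905 UMIs, and carried less immunoglobulin, at 21.5% against 43.4% of UMIs. The correlation of the immunoglobulin share with that of the 38 genes was 0.532 within the dividing and 0.522 within the other cells. With immunoglobulin out of the total, the median log2 ratio of the 39 genes in dividing over other plasma cells was -0.28 (-0.44 to -0.16), with 0 genes at least 1.5-fold higher and 11 as much lower, where 18.3% of all genes were higher and 18.4% lower. Without MZB1 the median of the 38 genes was -0.27 (-0.41 to -0.15), with 0 higher and 10 lower.

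The 11 lower genes were SSR4 at -1.48 (-1.55 to -1.42), DERL3 at -1.42 (-1.59 to -1.24), DNAJB9 at -1.34, ERN1 and DDIT3 at -1.26 each, HERPUD1 at -1.18, WIPI1 at -1.08, XBP1 at -1.01 (-1.09 to -0.93), MZB1 at -0.94, SEL1L at -0.69 and EDEM1 at -0.65. By role these were 3 of 4 sensors and factors, 4 of 7 degradation genes, 2 of 11 chaperones, 1 of 11 translocation genes and WIPI1. Other chaperones and the isomerase PDIA6 lay nearer 0, with CALR at 0.21 (0.15 to 0.27), CANX at 0.16, PDIA6 at 0.14, HYOU1 at 0.10, SDF2L1 at -0.04, HSPA5 at -0.13 (-0.19 to -0.08) and HSP90B1 at -0.23. Both groups come from 1 library, and depth and immunoglobulin share moved with the split; their part in it was not tested.

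Outside plasma cells the same genes were low and much alike between classes. With values in the order naïve blood, sham blood, SCI blood, cord, HSPA5 stood at 206, 215, 185 and 297 CPM in T cells, 243, 286, 361 and 279 in monocytes and 584, 494, 369 and 406 in granulocytes, and at 154, 147 and 138 CPM in the B cells of the 3 blood libraries. B cells were thus the lowest in every blood library, and granulocytes the highest in naïve and sham blood, while in SCI blood the intervals of granulocytes (317 to 427) and monocytes (278 to 461) overlapped. A single granulocyte held 64 of the 155 HSPA5 UMIs of naïve blood, and without it the level there was 368 CPM. HSP90B1 was at 231, 267 and 272 CPM in B cells, 269, 283, 261 and 303 in T cells, 278, 262, 389 and 468 in monocytes and 403, 417, 350 and 344 in granulocytes.

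XBP1 set the classes apart. It stood at 30.7, 34.9 and 42.8 CPM in B cells, 83.6, 80.2, 128 and 116 in T cells, 151, 140, 130 and 255 in monocytes and 328, 270, 223 and 375 in granulocytes. The order of B, T, monocyte and granulocyte held in all 3 blood libraries, with intervals that overlapped for T cells and monocytes of SCI blood, at 128 (123 to 134) and 130 (82.3 to 195) CPM. DNAJB9 stood at 38.4, 28.1 and 36.1 CPM in B cells, 30.5, 30.1, 27.2 and 35.3 in T cells, 34.5, 34.1, 33.9 and 28.4 in monocytes and 52.7, 77.0, 70.9 and 81.2 in granulocytes.

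HERPUD1 was highest in B cells, at 302, 265 and 264 CPM, with 123, 122, 114 and 123 in T cells, 97.1, 137, 152 and 156 in monocytes and 234, 224, 236 and 193 in granulocytes. ATF4 ran the other way in naïve and sham blood, from B cells down to granulocytes, at 150, 153 and 155 CPM in B cells, 137, 145, 162 and 120 in T cells, 119, 90.3, 113 and 75.6 in monocytes and 86.6, 78.7, 104 and 112 in granulocytes. DDIT3 stood at 34.4, 36.6 and 29.7 CPM in B cells, 16.3, 16.7, 17.0 and 16.6 in T cells, 11.5, 27.1, 16.9 and 14.2 in monocytes and 52.7, 46.9, 43.8 and 34.8 in granulocytes. The DDIT3 level of T cells stayed within 16.3 to 17.0 CPM over the 4 libraries.

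Of the translocation genes, SEC61B was at 431, 438 and 454 CPM in B cells, 430, 435, 431 and 428 in T cells, 361, 347, 339 and 444 in monocytes and 557, 454, 448 and 406 in granulocytes. SSR4 was at 414, 396 and 413 CPM in B cells, 436, 433, 462 and 455 in T cells, 328, 257, 322 and 326 in monocytes and 588, 606, 638 and 557 in granulocytes. DERL3 was close to absent outside the B lineage, with 15.7, 15.3 and 14.1 CPM in B cells, 1.23, 0.830, 0.680 and 0 in T cells, 1.04, 1.00, 0 and 4.73 in monocytes and 0, 0, 2.08 and 0 in granulocytes.

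Between B and T cells of naïve blood the median log2 ratio of the 39 genes was -0.29 (-0.49 to -0.07). Here 5 genes were at least 2-fold higher in B cells (11.5% of all genes), namely MZB1 at 4.18, DERL3 at 3.65, SYVN1 at 1.65, HERPUD1 at 1.29 and DDIT3 at 1.08. Another 2 were as much lower (15.2% of all genes), ERN1 at -2.60 (-3.62 to -1.83) and XBP1 at -1.44 (-1.75 to -1.15), with CRELD2, SDF2L1 and HYOU1 next at -0.93, -0.88 and -0.81. In sham and SCI blood ERN1 stood at -2.68 and -3.11 and XBP1 at -1.19 and -1.58, and the medians were -0.15 and -0.30. The B cells that precede plasma cells thus had less ERN1 and XBP1 than T cells, in each of the 3 blood libraries.

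Monocytes of naïve blood differed little from T cells, with a median of -0.29 over 38 genes against -0.42 for all genes. In them 2 genes were at least 2-fold higher (12.7% of all genes), SEC61A1 at 1.21 (0.85 to 1.55) and SEL1L, the partner of SYVN1, at 1.01 (0.96 without 1 cell, below 2-fold), followed by XBP1 at 0.86, WIPI1 at 0.70 and DNAJC3 at 0.66. The 3 genes as much lower (27.1% of all genes) were SRPRB, a subunit of the signal recognition particle receptor, at -1.65, ERN1 at -1.23 and CRELD2 at -1.04, followed by SSR2 at -0.77 and DERL1 at -0.66. The T cell list summed to 759 CPM in these monocytes, against 7327 in T cells, and its part in the ratios was not tested.

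In granulocytes the 39 genes made up 0.831%, 0.767%, 0.740% and 0.730% of UMIs in the 4 libraries, above B, T and monocyte classes in each blood library, where those lay between 0.496% and 0.592%. In the cord the 7 B cells stood higher, at 0.875%. Over T cells of naïve blood 8 of 38 genes were at least 2-fold higher (15.2% of all genes) and 0 as much lower (18.2%), with a median of 0.59 (0.16 to 1.07). The highest were XBP1 at 1.98 (1.64 to 2.29), DDIT3 at 1.74, WIPI1 at 1.59, HSPA5 at 1.51 and SYVN1 at 1.13. The lowest were ATF4 at -0.63, CRELD2 at -0.60, EDEM1 at -0.12, SSR2 at 0.07 and CANX at 0.10.

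A single cell carried much of that difference. It held 18519 UMIs, where the median granulocyte of the library had 3027, with 819 UMIs of CLC and 83 of EPX, genes of eosinophils. It gave 64 of the 155 HSPA5 UMIs and 20 of the 64 SDF2L1 UMIs of the 92 cells. Without it, 3 genes stayed past 2-fold, XBP1 at 1.83, DDIT3 at 1.74 and WIPI1 at 1.69, HSPA5 was at 0.85 and the median was 0.31. DDIT3 rested on 14 UMIs, and without the cell that held most of them it was at 1.15. In sham and SCI blood the medians were 0.54 and 0.51, with XBP1 at 1.75 and 0.80, DDIT3 at 1.52 and 1.40 and WIPI1 at 1.95 and 1.91.

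The libraries were then compared within a class. In T cells few of the genes differed. Sham over naïve blood gave a median of -0.02, with 0 of 39 genes at least 1.5-fold higher (3.50% of all genes) and 1 lower (4.61%), MZB1 at -0.69 (-1.02 to -0.37). SCI over naïve blood gave a median of -0.06, with 1 gene higher (6.48%), XBP1 at 0.62 (0.51 to 0.72), and 2 lower (5.93%), MZB1 at -1.24 (-1.60 to -0.89) and DERL3 at -0.84 (-2.06 to 0.32). SCI over sham blood gave a median of -0.03, with XBP1 alone higher (6.20%) at 0.68 (0.58 to 0.78) and 0 genes lower (4.91%).

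The immunoglobulin genes also differed between these libraries. IGHM was at 362 CPM in the T cells of naïve blood, 32.4 in sham and 24.9 in SCI blood, and JCHAIN at 47.0, 1.72 and 3.40 CPM, while MZB1 was at 14.1, 8.71 and 5.95. The naïve library was the one with 376 plasma cells, and the part of their RNA in these levels was not tested. Without the T cell with most MZB1 UMIs the sham over naïve ratio of MZB1 was -0.52, below 1.5-fold.

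**Figure D4:**
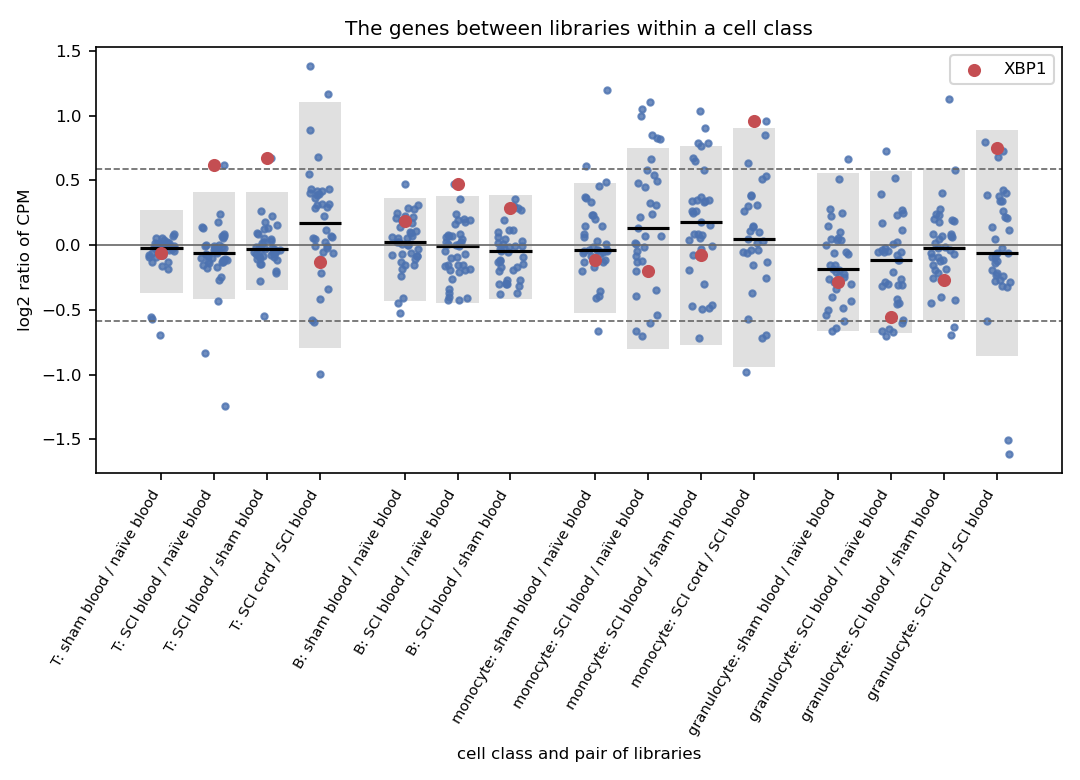
Log2 ratio of CPM of each gene (blue points) between pairs of libraries within T cells, B cells, monocytes and granulocytes, with XBP1 in red, the median of the genes as a black bar and the 10th to 90th percentile of all genes tested as a grey band. Dashed lines mark 1.5-fold; XBP1 lies above the line in T cells of SCI over naïve (0.62) and SCI over sham blood (0.68) and below it in B cells.

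The T cell difference in XBP1 rested on 2264 UMIs in 1605 of 4830 cells of SCI blood, 1091 UMIs in 874 of 4408 cells of naïve and 1354 UMIs in 993 of 3885 cells of sham blood. After thinning to 1000 UMIs, XBP1 was seen in 8.47% (7.70% to 9.29%) of T cells of SCI blood, 5.90% (5.22% to 6.63%) of naïve and 5.61% (4.91% to 6.38%) of sham blood. No other gene was 1.5-fold higher. ATF4 was higher by less, at 162 CPM (156 to 168), while naïve and sham blood had 137 (130 to 143) and 145 (139 to 151), and ERN1 was at 26.2 against 23.2 and 23.1, with intervals that overlap. SSR2 was also higher by less, at 396 CPM (387 to 405) against 362 (351 to 372) and 330 (322 to 339). SSR4 was at 462 CPM (452 to 473) against 436 (425 to 447) and 433 (423 to 443). PDIA6 was lower, at 206 CPM (200 to 213) against 245 (236 to 254) and 237 (230 to 244). HSPA5 was at 185 CPM against 206 and 215, and DNAJB9, a target of spliced XBP1, at 27.2 against 30.5 and 30.1.

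XBP1 differed more between kinds of T cells than between libraries. In naïve, sham and SCI blood it was at 204, 196 and 246 CPM in the cluster led by CD8B and GZMK, and at 31.9, 40.9 and 45.4 in that led by FOXP3, the factor of regulatory T cells. The cytotoxic cluster with GNLY and GZMH gave 78.5, 88.5 and 148 CPM, and the dividing cluster with RRM2 and MKI67 gave 58.2, 52.2 and 71.7. The CD40LG cluster gave 82.8, 68.3 and 88.7 CPM, and the cluster with NRP2 and AK5 gave 102, 122 and 138.

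SCI blood was the highest of the 3 in all 6 clusters, by 5.92 to 69.7 CPM over naïve and 4.51 to 59.7 over sham blood. Its interval was clear of both other libraries only in the CD8B and GZMK and the GNLY and GZMH clusters. In the CD40LG cluster it was clear of sham blood alone, and in the rest it overlapped both. The CD8B and GZMK cluster also held more of the T cells in SCI blood, 29.5% against 14.7% in naïve and 15.9% in sham blood. With the T cell clusters of SCI blood weighted to their mix in the other library, the XBP1 ratio was lower. It was 0.30 for SCI over naïve and 0.34 for SCI over sham blood, which is below 1.5-fold. Split by marker, XBP1 was at 135, 134 and 202 CPM in cells with a CD8A or CD8B UMI. In cells with CD4 and neither CD8 gene it was at 59.9, 62.6 and 85.8.

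**Figure D5:**
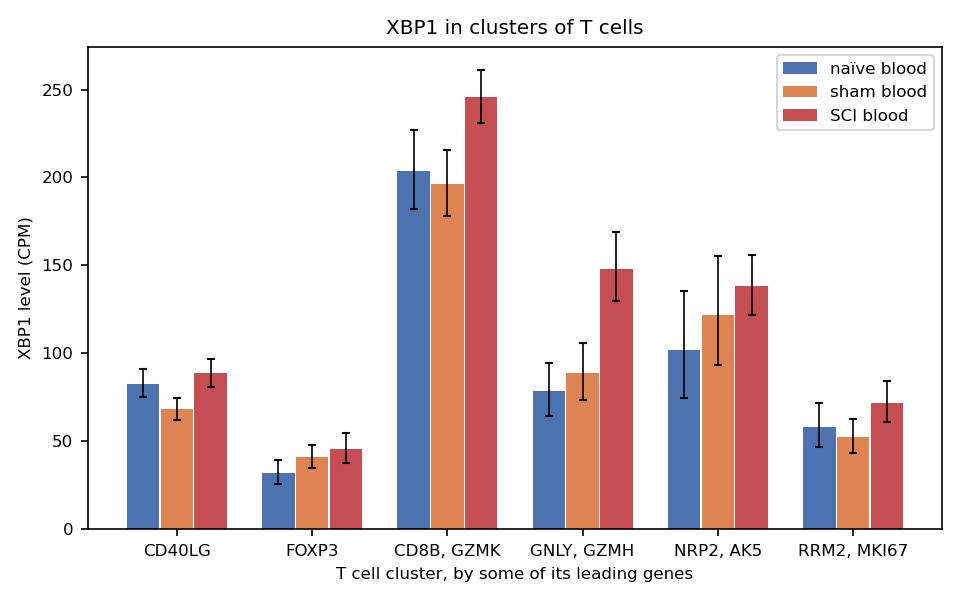
XBP1 level in CPM in 6 clusters of T cells, named by some of their leading genes, in naïve, sham and SCI blood, with exact Poisson 95% intervals. The CD8B and GZMK cluster is the highest in every library, at 196 to 246 CPM, and the FOXP3 cluster the lowest, and the SCI blood bar is the tallest of each trio.

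The T cells of SCI cord, 70 in number, were set against those of SCI blood. The median of 38 genes was 0.17 (-0.22 to 0.54), with 4 genes at least 1.5-fold higher (21.5% of all genes) and 2 lower (15.2%). HSPA5 was at 0.68 (0.43 to 0.92), HYOU1 at 0.89 (0.08 to 1.53) and WIPI1 at 1.17 (0.01 to 2.01). MZB1 at 1.38 and SYVN1 at -0.99 had intervals that include 0, and MANF was lower at -0.59 (-1.15 to -0.13), or -0.58 and below 1.5-fold without 1 cell.

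Of the 143 HSPA5 UMIs in the cord T cells 31 came from 1 cell, and without it the level was 247 CPM and the ratio 0.42, below 1.5-fold. WIPI1 rested on 10 UMIs, 4 of them in 1 cell, and its ratio was 0.50 without it. Genes of tissue dissociation, a list that includes heat shock genes, summed to 5852 CPM in cord T cells against 3880 to 4648 in the blood libraries, and their part in the HSPA5 level was not tested.

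In B cells none of the members was past 1.5-fold in any pair of blood libraries. Sham over naïve blood gave a median of 0.03 (4.01% of all genes higher and 6.01% lower), SCI over naïve 0.00 (4.76% and 6.43%) and SCI over sham -0.05 (4.96% and 4.73%). XBP1 was the highest in SCI over naïve at 0.48 (0.09 to 0.87), on 134 and 100 UMIs, and HSP90B1 was at 0.24 (0.10 to 0.38).

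In myeloid cells the numbers were small and the mix differed, as monocytes were 154 of 246 cells in naïve blood and 19 of 149 in SCI blood. Sham over naïve blood gave a median of 0.00, with DDIT3 higher at 0.74 on 55 and 25 UMIs, as 1 of 38 genes (8.24% of all genes), and MZB1 lower at -2.93 (7.78%) on 3 and 20 UMIs. DDIT3 was at -0.68 when cells with any UMI of the T or B lists were left out. SCI over naïve blood gave a median of 0.25, with 7 genes higher (16.7%) and 2 lower (17.1%). Monocytes alone gave a median of 0.13, with 7 of 33 genes higher (15.4%) and 3 lower (16.2%). Granulocytes alone gave -0.12, with 1 of 36 higher (9.89%) and 5 lower (13.6%). The 5 were HSPA5, SDF2L1, PDIA4, SSR1 and SSR3, and each came below 1.5-fold without the cell with most of its UMIs. In the pooled class the count of higher genes was 10 without the single granulocyte of naïve blood described above. It was 14 without the highest Scrublet (doublet) scores and 6 with monocytes and granulocytes of SCI blood weighted to their mix in naïve blood.

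Of the 7 genes higher in the pooled myeloid cells of SCI over naïve blood, 6 had intervals above 0. They were ERN1 at 1.60 (0.70 to 2.58), SRPRB at 1.05 (0.24 to 1.88), MANF at 0.91 (0.53 to 1.28), HERPUD1 at 0.75 (0.41 to 1.09), DNAJB9 at 0.67 (0.02 to 1.30) and PDIA6 at 0.59 (0.30 to 0.87). DDIT3 was the other, at 0.84 (-0.03 to 1.71). SEL1L was lower at -0.66 (-1.25 to -0.13), and MZB1 was lower on 5 and 20 UMIs (-2.87 to 0.35). IGHM in myeloid cells was at 1109, 23.8 and 102 CPM in naïve, sham and SCI blood. Without the cell with most of their UMIs DNAJB9 and PDIA6 were at 0.57 and 0.55, below 1.5-fold. With monocytes and granulocytes weighted to the naïve mix ERN1 was at 0.74, MANF at 0.81 and DNAJB9 at 0.09. The dissociation list summed to 10682 CPM in monocytes of SCI blood against 5054 in naïve blood, and its part was not tested.

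SCI over sham blood gave a median of 0.26, with ERN1 at 1.62 (0.77 to 2.50) and SRPRB at 0.82 (0.07 to 1.54) higher (14.4% of all genes) and 0 lower (13.6%). There monocytes alone gave a median of 0.18 and granulocytes alone -0.02. SCI cord over SCI blood gave a median of -0.07 over 37 genes, with EDEM1 at 0.89 (0.03 to 1.79) and XBP1 at 0.70 (0.35 to 1.05) higher (16.8%), and ERN1 at -1.10 (-2.42 to -0.03), DERL1 at -0.94 (-1.68 to -0.28) and SYVN1 at -0.82 (-2.38 to 0.45) lower (16.5%). Of the 97 XBP1 UMIs in cord granulocytes 21 came from 1 cell, and without the cell with most XBP1 the myeloid ratio was 0.53, below 1.5-fold.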

How the data were processed

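Human CD45+ cells were counted in 4 libraries. The authors aligned reads with Cell Ranger 3.1.0 to a combined human (hg38) and mouse (mm10) reference and deposited UMI counts per gene and barcode, not normalised; the analysis started from these counts. Barcodes with over 50% human UMIs were kept, and those over 3 median absolute deviations from the library median were removed (low UMIs or genes, high mitochondrial or ribosomal percent). No doublet caller was applied in the main analysis. Apart from plasma cells, a class needed at least 3 UMIs of its list and 80% of the UMIs of the T, B and myeloid lists; 379 barcodes stayed unclassified.

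UMIs were summed per class and library and scaled to CPM of human genes without ribosomal protein and mitochondrial genes. Log2 ratios used 0.5 added counts, conditional binomial intervals, genes with at least 20 counts over both sums and classes with at least 10 cells. A gene was past the fold at 2-fold between classes and 1.5-fold between libraries. The interval beside a median is the median of the members' bounds. Levels had exact Poisson intervals and shares of cells exact binomial (Clopper-Pearson) intervals. UMIs correct for amplification, but intervals cover counting error only and say nothing of the spread between animals. T cells were clustered (Leiden, resolution 0.8) from 2000 variable genes, with 30 components and 15 neighbours.

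The 39 members and all lists were chosen with earlier results of these data known. Named genes were 10 members given in every class and library, the 5 highest and 5 lowest of a comparison between classes, and up to 10 past 1.5-fold whose interval leaves out 0 between libraries. Others were named after their values were seen. One gene that the rule names is not reported here. Software was scanpy 1.11.5, igraph 0.11.9 and scikit-learn 1.9.0 for cells, pandas 2.3.3, scipy 1.17.1 and numpy 2.4.6 for values and matplotlib 3.10.9 for plots, all in Python 3.11.15; TMM factors came from edgeR 4.0.16 (R 4.3.3). The ratio calculation was tested on simulated data. Alternatives changed the scaling, cell filter, doublets, class rule and T cell subsets.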

Additional observations from a re-analysis of the deposited data

Results flagged for a closer look

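SDF2L1 was higher in monocytes and lower in granulocytes of SCI over naïve blood, with log2 ratios of 1.00 and -0.65, which marked it for its opposite directions. The difference was not tested. Without the cell with most SDF2L1 UMIs in the higher group the ratios were 0.39 and -0.21, both below 1.5-fold.

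The 7 B cells of SCI cord entered no comparison, and 12 of the 39 genes lay above the B cells of SCI blood there, with Poisson intervals that did not overlap. The share of all genes that met the same rule was not counted, so that the 12 cannot be set against a background. HSPA5 was at 530 CPM, HSP90B1 at 613, XBP1 at 279, SDF2L1 at 307, PDIA6 at 362, SEC61B at 655, SEC61G at 320, DERL3 at 125, CALR at 474, PDIA3 at 376, KDELR2 at 181 and MZB1 at 585. A single cell of 39540 UMIs carried 17 of the 20 XBP1, 30 of the 38 HSPA5, 20 of the 22 SDF2L1 and 7 of the 9 DERL3 UMIs, with 139 UMIs of JCHAIN and 0 of TNFRSF17, so that it did not pass the plasma rule.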

How the results depend on the processing

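Over 22 alternative settings, 279 values of the medians and of the counts of members higher in plasma cells stayed within the counting interval or 1.5 times of the value given above, and 20 did not. For small classes that interval is wide, as at -0.76 to 0.88 for the median of monocytes over T cells of SCI blood. Of the values of single genes and of the other counts, 1863 stayed by the same rule, 242 did not and 16 turned direction. Some settings were chosen after seeing the data. These were CD8 or CD4 T cells alone, cell groups weighted to the mix of the other library and plasma cells chosen by JCHAIN. The others were plasma cells of SCI blood and leaving out a single cell. For plasma over B cells the median was 2.56 with a total of all human genes, 2.98 with TMM factors, 2.86 without immunoglobulin in the total, 4.47 in UMIs per cell and 1.82 in SCI blood. For plasma over T cells it was 2.81 with TMM factors, 2.73 without immunoglobulin and 4.18 in UMIs per cell. In UMIs per cell, which follow depth, monocytes over T cells gave 0.78, 1.13 and 1.59 in naïve, sham and SCI blood. T cells gave 0.53 for sham over naïve, 0.24 for SCI over naïve, -0.28 for SCI over sham blood and 1.08 for SCI cord over SCI blood, B cells 0.64 for sham and 0.35 for SCI over naïve blood, and myeloid cells 0.51 for sham over naïve, -0.43 for SCI over sham blood and 1.42 for the cord.

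The direction turned for DDIT3 in plasma over B cells with TMM factors (0.05) and in UMIs per cell (1.54). In UMIs per cell it also turned for monocytes over T cells in CRELD2 (0.03), SSR2 (0.30) and DERL1 (0.42) of naïve blood, SRPRB (0.16), CRELD2 (0.42) and SSR4 (0.46) of sham blood and SSR2 (0.52) and SPCS1 (0.64) of SCI blood, for MANF in T cells of the cord over SCI blood (0.32), and for ERN1 (0.39) and DERL1 (0.55) in myeloid cells of the cord. With no UMI of other lists allowed, DDIT3 was at -0.06 in monocytes over T cells of sham blood and -0.68 in myeloid cells of sham over naïve blood. ATF4 was at -0.41 (-1.54 to 0.42) in plasma over B cells of SCI blood, on 10 UMIs in the plasma cells. Most of the plasma barcodes there lay in the B cell cluster. The cause was not tested, beyond the change of depth that UMIs per cell carry. No paired analysis was possible because each condition has 1 library, so that blood and cord of injured mice, which share hosts and the number 2 in their titles, form only 1 pair, and for the same reason no replicate could be left out. Counts of members past 1.5-fold in myeloid cells of sham over naïve blood ran from 1 to 5 higher, the most with no UMI of other lists, and 16 were higher in UMIs per cell. Depth limits low genes such as DERL3 and DDIT3 and classes under 20 cells.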

Other observations

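In sham and SCI blood the few barcodes that passed the plasma rule fell into separate sets. The 4 sham cells in the plasma cell cluster held 6, 8, 48 and 50 UMIs of XBP1 and the 3 SCI cells held 26, 44 and 28. The other 3 sham and 9 SCI cells lay in the B cell cluster and held 0 UMIs of XBP1, except for 1 SCI cell with 3. Of the 7 cells in the plasma cell cluster, 6 were among the highest Scrublet scores of their library.

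Of the 52 companion genes tested in T cells, 1 was at least 1.5-fold higher (6.48% of all genes) and 2 lower (5.93%) in SCI over naïve blood. SCI over sham blood likewise gave 1 higher (6.20%) and 2 lower (4.91%). In SCI over naïve blood ERO1B, an ER oxidase, was higher at 0.61 (0.31 to 0.93), TRIB3 lower at -0.65 (-0.95 to -0.35) and KDELR3 lower at -1.04 (-2.46 to 0.24) on 9 and 14 UMIs. TRIB3 was also lower in SCI over sham blood, at -0.70 (-0.98 to -0.42), where SESN2 was higher at 0.67 (0.25 to 1.11) and KDELR3 was at -0.86 (-2.25 to 0.37). In myeloid cells PPP1R15A, which restarts translation after PERK signalling, was higher in sham over naïve blood at 0.65 (0.35 to 0.96), in SCI over naïve blood at 0.91 (0.55 to 1.26) and in SCI cord over SCI blood at 0.74 (0.40 to 1.08), and in T cells of the cord over SCI blood at 0.60 (0.34 to 0.85). SELENOK, an ER selenoprotein, was higher in myeloid cells of SCI over naïve blood at 0.88 (0.61 to 1.15) and over sham blood at 0.65 (0.40 to 0.89). These genes were named after their values were seen.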
